A study of Homo sapiens with 2 samples.

Results

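The 43 genes described here make fatty acids, desaturate and elongate them, activate them as CoA esters and store them as triglyceride. They were chosen by symbol among the 58884 genes of a count table, with earlier results of these data known, and were grouped as regulators, synthesis, desaturation, elongation, activation, glycerolipid assembly and droplets. The table compares SAS cells, an established tongue carcinoma line of squamous type, after infection with the control lentiviral vector pLKO.1 (LKO, genotype labelled WT) or with a hairpin against the histone demethylase gene KDM4C (shKDM4C), grown in DMEM with 10% fetal bovine serum. RNA-seq was done to ask how KDM4C affects metastasis. There was 1 library per condition, from puromycin-selected transduced cells, and which of the study's hairpins the sequenced cells carried is not given in the sources used here. Of the 43 genes, 41 had at least 20 counts over both libraries and are called measured below, while ELOVL2 and PLIN2 had fewer.

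Fatty acids are built in the cytosol from acetyl-CoA, which comes from citrate or acetate, by carboxylation to malonyl-CoA and repeated condensation on fatty acid synthase. The product, palmitate, is then lengthened and desaturated at the endoplasmic reticulum and esterified to glycerol, and surplus triglyceride is held in lipid droplets until lipases release it. Transcription of the early steps is known to be driven by SREBP-1, the product of SREBF1, a membrane-bound precursor that is cut and released to the nucleus when sterols or polyunsaturated fatty acids are scarce, and fatty acid synthesis is known to be high in many squamous carcinomas.

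The LKO library held 57626616 counts and the shKDM4C library 50627096. Levels are given as TMM-scaled CPM, the count of a gene relative to the scaled library size, and differences as the log2 ratio of the shKDM4C to the LKO level, whose 95% interval covers counting error only. Genes are named lower or higher if the difference reached 1.5-fold and no change lay outside the interval. With 1 library per condition the differences have no replicate check, no test between conditions was possible and no p-value is given. In bulk RNA, fewer cells that express a gene and less of its RNA per cell cannot be told apart. KDM4C itself had 1047 counts in LKO and 242 in shKDM4C, a log2 ratio of -1.85 (interval -2.06 to -1.65). Squamous markers were present in both libraries, with 9 of 9 genes measured and KRT5, a basal keratin gene, at 408 CPM in LKO and 323 in shKDM4C. Of these 9 markers, 3 were lower and 2 higher in shKDM4C (33.3% and 22.2%, against 15.7% and 13.0% of all measured genes). CDH1 at -1.03 and TP63 at -0.69 were among the lower, KRT6A at 1.04 and SOX2 at 1.18 were the higher, and KRT5 was neither. All 7 adipocyte markers had fewer than 20 counts, among them ADIPOQ, LEP, FABP4 and CIDEC with 0 in both libraries, and their summed level was 0.253 CPM in LKO and 0.183 in shKDM4C. The 4 hepatocyte markers were also below 20 counts. Of 5 fibroblast markers 2 were measured, COL1A1 with 97 counts in LKO and 123 in shKDM4C, which was higher at 0.60 (interval 0.21 to 1.01), and PDGFRA with 12 and 10. Of 4 leukocyte markers 1 was measured, PTPRC with 14 and 12 counts. The part of other cells in the ratios below was not tested.

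The promoters of 4 lower genes are shown to make their sequence context visible: the lowest regulator, the lowest desaturase gene and the lowest gene of the FADS cluster, and PNPLA2, picked because its window is the only one of a lower gene that holds the sterol word searched. They are the RefSeq windows from 250 bases before to 50 bases after an annotated start on GRCh38.p14, written from 5′ to 3′ on the strand of the gene. Capitals mark TCACNCCAC, a sterol regulatory element bound by SREBPs, CCAAT, the word of NF-Y, and GGGCGG, the word of Sp1, each searched on both strands. SREBF1 encodes SREBP-1, SCD the main stearoyl-CoA desaturase, FADS3 a desaturase of the FADS cluster and PNPLA2 the first lipase of triglyceride breakdown, and all 4 genes were lower in shKDM4C. The windows lie at chr17:17836937-17837236 on the minus strand for SREBF1, chr10:100346983-100347282 on the plus strand for SCD, chr11:61891496-61891795 on the minus strand for FADS3 and chr11:818664-818963 on the plus strand for PNPLA2.
SREBF1: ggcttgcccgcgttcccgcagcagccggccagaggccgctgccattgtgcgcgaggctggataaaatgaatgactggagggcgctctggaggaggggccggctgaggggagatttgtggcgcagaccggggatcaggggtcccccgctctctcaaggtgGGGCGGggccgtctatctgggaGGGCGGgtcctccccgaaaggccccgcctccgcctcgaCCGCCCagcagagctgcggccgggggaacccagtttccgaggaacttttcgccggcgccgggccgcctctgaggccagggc
SCD: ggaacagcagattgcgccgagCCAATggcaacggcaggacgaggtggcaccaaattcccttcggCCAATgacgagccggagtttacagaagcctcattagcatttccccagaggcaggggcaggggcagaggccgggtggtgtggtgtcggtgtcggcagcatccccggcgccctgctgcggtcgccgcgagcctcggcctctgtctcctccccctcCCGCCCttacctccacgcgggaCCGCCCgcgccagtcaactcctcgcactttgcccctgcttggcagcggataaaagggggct
FADS3: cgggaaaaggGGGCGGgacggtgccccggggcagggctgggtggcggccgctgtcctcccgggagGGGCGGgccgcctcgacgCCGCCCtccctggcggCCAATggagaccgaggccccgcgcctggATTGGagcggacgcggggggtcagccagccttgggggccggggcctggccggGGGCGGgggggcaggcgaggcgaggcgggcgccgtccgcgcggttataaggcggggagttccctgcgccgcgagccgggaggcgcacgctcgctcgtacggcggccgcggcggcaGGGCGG
PNPLA2: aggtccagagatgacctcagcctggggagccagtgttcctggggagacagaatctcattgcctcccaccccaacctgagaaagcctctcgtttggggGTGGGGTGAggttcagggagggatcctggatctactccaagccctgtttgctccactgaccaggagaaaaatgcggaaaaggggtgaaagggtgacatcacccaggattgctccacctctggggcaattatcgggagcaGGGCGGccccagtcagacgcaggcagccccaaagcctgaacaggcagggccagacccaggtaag

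The SCD window holds 2 CCAAT and 2 GGGCGG words, that of FADS3 2 CCAAT and 5 GGGCGG words, and that of SREBF1 3 GGGCGG words and 0 CCAAT words. The PNPLA2 window holds 1 sterol regulatory element, at position -153 from the annotated start. RefSeq windows were found for 37 of the 43 members, 62 windows in all, and 6 members (FASN, HSD17B12, GPAT4, DGAT1, DGAT2 and MGLL) had no entry. CCAAT was present in 61.1% of the 18 windows of regulators, synthesis and desaturation genes, in 36.4% of the 44 windows of the other members and in 34.6% of all 35116 windows. GGGCGG was in 83.3%, 75.0% and 45.0% of them. The regulators, synthesis and desaturation roles were pooled with the ratios known, so these shares are no independent support for the ratios. Split by call instead of role, GGGCGG did not follow direction, with 81.8% of the 22 windows of lower members and 83.3% of the 12 windows of higher members. CCAAT was in 11 of the 22 and in 4 of the 12, and this difference was not tested. The 35116 windows cover 27305 genes and were not limited to measured genes. TCACNCCAC was in 0 of the 18 windows, in 2 of the 44, those of PNPLA2 and of 1 start of ACSL1, and in 1.13% of all windows. Also searched were the E-box CACGTG, found in 3 of the 62 member windows (7.26% of all windows), the GATA word AGATAA, found in 4 (10.3%), and the DR4 repeat of liver X receptors, found in 0 (0.0199%). Matches of different words overlapped 1 time in the member windows. These are matches of letters, several windows belong to the same gene, and binding was not measured. Each window covers only 300 bases, so a word elsewhere in or near a gene was not searched for. SREBF1 had only 1 window although it has alternative first exons.

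The 43 genes differed by role, and the 7 roles are pooled below in 3 groups that were formed with the ratios known. Of the 41 measured, 14 were at least 1.5-fold lower in shKDM4C (34.1%, against 15.7% of the 18078 genes measured in the whole table) and 7 were at least 1.5-fold higher (17.1%, against 13.0%). At 2-fold, 8 of the 41 were lower and 1 higher, against 7.46% and 7.77% of all measured genes. By the interval alone, at any size, 22 of the 41 were lower and 15 higher, against 33.5% and 32.1% of all measured genes. Their median log2 ratio was -0.20, beside -0.0094 for all measured genes. The regulators, synthesis and desaturation genes held 10 of the 14 lower genes and none of the higher, with a median of -0.93 over 13 genes, 12 of which had a ratio below 0. The elongation and activation genes held none of the lower genes and 4 of the higher, with a median of 0.17 over 14 genes. Glycerolipid assembly and droplet genes went both ways, with 4 lower, 3 higher and 7 neither.

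**Figure D1:**
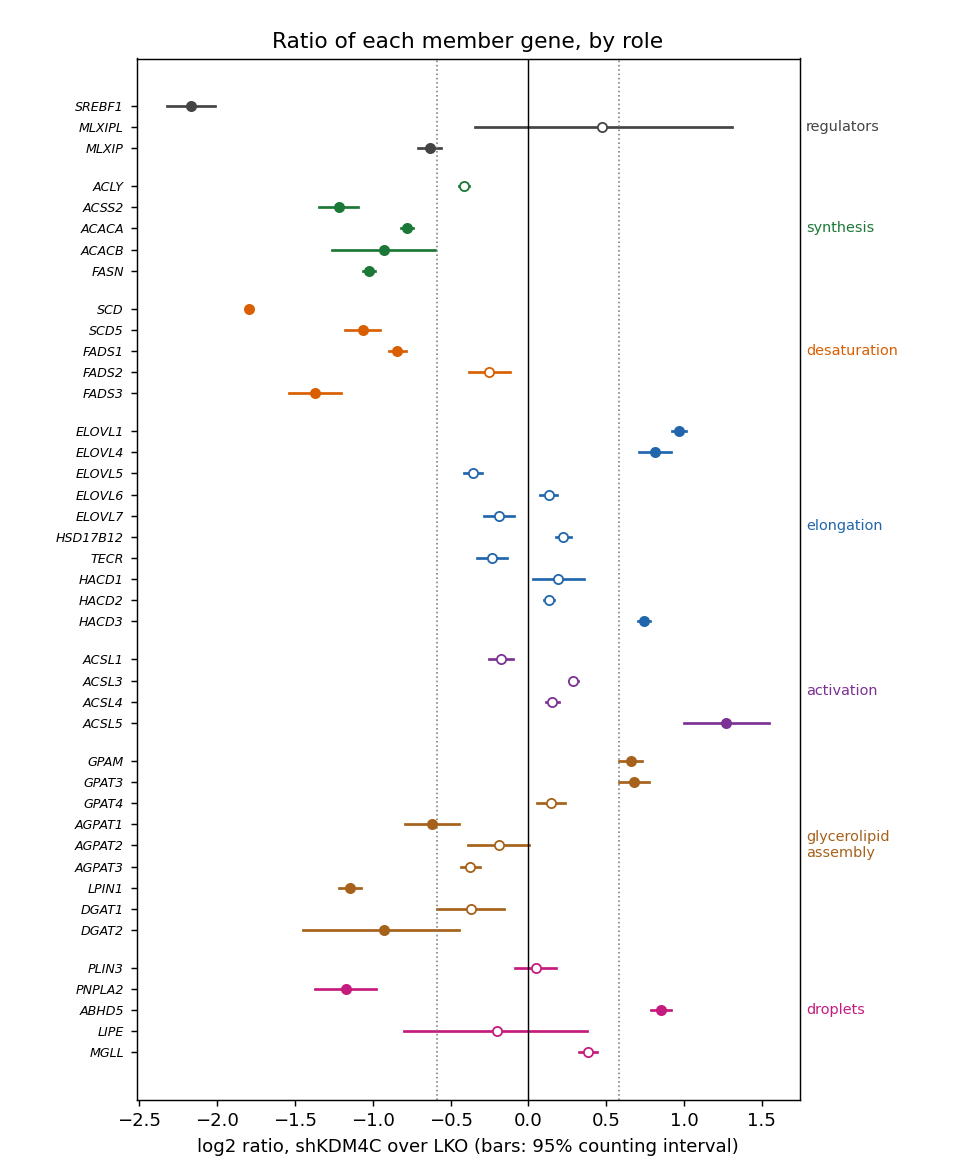
Log2 ratio of shKDM4C over LKO (horizontal axis) for the 41 measured members, grouped by role. Filled points are genes called lower or higher, open points are neither, bars are 95% counting intervals from 1 library per condition and dotted lines mark 1.5-fold. SREBF1 lies farthest to the left at -2.17 and ACSL5 farthest to the right at 1.27.

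The regulators differed among themselves. SREBF1 had 2220 counts in LKO and 411 in shKDM4C, which is 37.5 against 8.34 CPM. Its log2 ratio of -2.17 (interval -2.32 to -2.02) placed the shKDM4C level at 22.3% of LKO, the lowest of the 41 genes and rank 150 from the lowest of the 18078 genes measured. On GRCh38 the gene spans chr17:17810399-17837002, minus strand, shares 556 exonic bases with RAI1 on the opposite strand (2745 counts against 1694), and its alternative first exons, which make SREBP-1a and SREBP-1c, were counted together. MLXIP, which encodes the glucose-sensing factor MondoA, had 4130 counts against 2215, at levels of 69.8 and 44.9 CPM. The ratio of -0.63 on the log2 scale (interval -0.71 to -0.56) was just past 1.5-fold. MLXIPL, which encodes the related carbohydrate-response factor ChREBP, was near the limit of detection with 25 counts in LKO and 29 in shKDM4C, and its interval of -0.34 to 1.31 includes no change.

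All 5 synthesis genes had a lower value in shKDM4C, and 4 of them passed 1.5-fold (80%, against 15.7% of all measured genes). ACLY, which splits citrate into acetyl-CoA, differed least, with 19931 counts against 12452 and 75.0% of the LKO level. ACSS2, which makes acetyl-CoA from acetate, differed most, with 1962 counts against 701. Its level was 33.1 CPM in LKO and 14.2 in shKDM4C, a log2 ratio of -1.22 (interval -1.35 to -1.10).

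The 2 acetyl-CoA carboxylase genes, which make malonyl-CoA, were both lower. ACACA, the cytosolic form, had 17019 counts against 8250, which gave levels of 288 and 167 CPM and a log2 ratio of -0.78 (interval -0.82 to -0.74). ACACB, the form at the outer mitochondrial membrane, had only 256 counts against 112 and a wider interval, -1.26 to -0.60, around a log2 ratio of -0.93. Per kilobase of exon, ACACA was far above ACACB in each library, with 22.1 against 0.298 CPM per kb in LKO and 12.9 against 0.157 in shKDM4C. FASN, fatty acid synthase, was lower as well: its counts were 19397 in LKO and 7941 in shKDM4C, which is 328 against 161 CPM. The log2 ratio of -1.02 (interval -1.06 to -0.99) put FASN at 49.2% of LKO. The gene spans chr17:82078338-82098294, minus strand.

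The summed level of the desaturation genes in shKDM4C was 32.3% of LKO, and 55.2% without SCD, which is above that of the regulators, whose sum was 108 CPM in LKO and 53.9 in shKDM4C. SCD, which introduces the double bond of oleate and palmitoleate, had 89813 counts in LKO and 21543 in shKDM4C. Scaled, the levels were 1517 and 437 CPM, with a log2 ratio of -1.80 (interval -1.82 to -1.77). SCD alone took 0.156% of all LKO counts (exact 95% binomial interval 0.155 to 0.157) and 0.0426% of the shKDM4C counts (0.0420 to 0.0431), and its rank by counts among all genes moved from 41 to 373. The gene spans chr10:100347233-100364826, plus strand.

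The second stearoyl-CoA desaturase gene, SCD5, went the same way at a much lower level. It had 2378 counts against 946, with 40.2 CPM in LKO and 19.2 in shKDM4C. The log2 ratio of SCD5 was -1.07 (interval -1.18 to -0.96). SCD made up 96.8% of the summed per-kb level of the pair in LKO and 94.8% in shKDM4C. In the FADS cluster on chromosome 11 the 3 genes differed in size. FADS1, the delta-5 desaturase of polyunsaturated fatty acids, had 9149 counts against 4252 and a log2 ratio of -0.84 (interval -0.89 to -0.79). FADS2, the delta-6 desaturase, was not called, with 1119 counts against 783 and a log2 ratio of -0.25 (interval -0.38 to -0.12). FADS3, which acts on sphingoid bases, was the lowest of the cluster with 1236 counts against 398 and a log2 ratio of -1.37 (interval -1.54 to -1.21). FADS1 and FADS2 lie on opposite strands and share 490 exonic bases, and since the strand setting of the counting is not given, reads in that stretch are less certain.

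**Figure D2:**
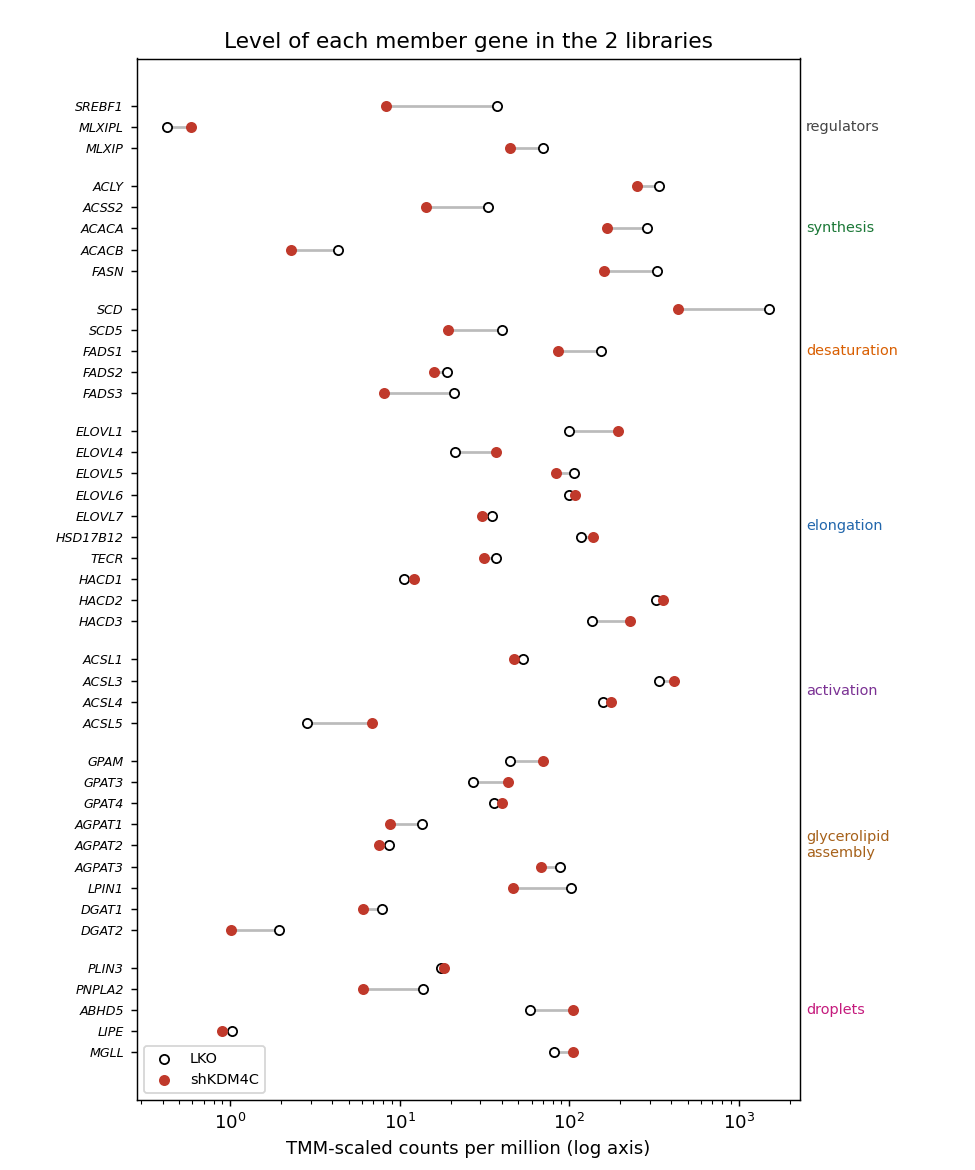
TMM-scaled CPM (log axis) of the 41 measured members in LKO (open) and shKDM4C (filled), 1 library each. SCD is the most abundant in both libraries at 1517 and 437 CPM, and MLXIPL, LIPE and DGAT2 lie at or below 1.94 CPM.

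In elongation 0 of 10 measured genes were lower and 3 higher (0% and 30%, against 15.7% and 13.0% of all measured genes). The other 7 were neither, and the median log2 ratio was 0.16. The elongase gene ELOVL1, whose enzyme makes very long saturated and monounsaturated chains, had 5876 counts in LKO and 9574 in shKDM4C, with levels of 99.3 and 194 CPM. This was 1.96-fold higher, a log2 ratio of 0.97 (interval 0.92 to 1.02). ELOVL4, which makes the ultra-long chains of skin barrier ceramides, had 1253 counts against 1832 and was 1.76-fold higher, with an interval of the log2 ratio from 0.71 to 0.92. HACD3, a dehydratase of the elongation cycle, had 8082 counts against 11263 and a log2 ratio of 0.74 (interval 0.70 to 0.78).

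The other elongation genes lay between 78.2% and 117% of the LKO level. ELOVL5, which lengthens polyunsaturated chains, was the lowest of them, with 6328 counts against 4122 and a log2 ratio of -0.35 (interval -0.41 to -0.30). ELOVL6, which carries palmitate to stearate, had 5876 counts against 5359 and a log2 ratio of 0.13 (interval 0.077 to 0.18). SREBP-1 activity was not measured, and its part in the ratios of the members was not tested. ELOVL7 had -0.19 (interval -0.28 to -0.090). The enzymes that complete each elongation cycle stayed within 1.5-fold apart from HACD3: the ketoreductase gene HSD17B12 had a log2 ratio of 0.22 (interval 0.18 to 0.27). The enoyl reductase gene TECR had -0.23 (interval -0.33 to -0.14). The dehydratase genes HACD1 and HACD2 had 0.19 (interval 0.028 to 0.35) and 0.13 (interval 0.10 to 0.16). ELOVL2, which makes the precursors of docosahexaenoate, was nearly silent, with 0 counts in LKO, which allows up to 0.0507 CPM at 3 counts, and 7 counts in shKDM4C.

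By level per kilobase of exon, ELOVL1, ELOVL5 and ELOVL6 led in that order in both libraries, and ELOVL7 and ELOVL4 changed places behind them. ELOVL1 made up 41.2% of the summed per-kb level of the ELOVL genes in LKO and 58.0% in shKDM4C, while ELOVL5 went from 29.2% to 16.4% and ELOVL6 from 14.2% to 11.2%. The summed level was 96.1 CPM per kb in LKO and 134 in shKDM4C.

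Activation genes encode the long-chain acyl-CoA synthetases that attach fatty acids to CoA. ACSL5 was the only one called, 2.41-fold higher, with 168 counts in LKO and 338 in shKDM4C and a log2 ratio of 1.27 (interval 1.00 to 1.55), the highest of the 41 members. It shares 144 exonic bases with ZDHHC6 on the opposite strand, which had far more reads, 4363 counts against 4819. ACSL5 was also the least abundant of the 4, at 2.84 CPM in LKO and 6.86 in shKDM4C. The most abundant was ACSL3, a synthetase of the endoplasmic reticulum and droplets, which had 20170 counts against 20520 and a log2 ratio of 0.29 (interval 0.26 to 0.32). ACSL4, which prefers arachidonate, had 0.15 (interval 0.11 to 0.20) and ACSL1 had -0.18 (interval -0.26 to -0.10).

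**Figure D3:**
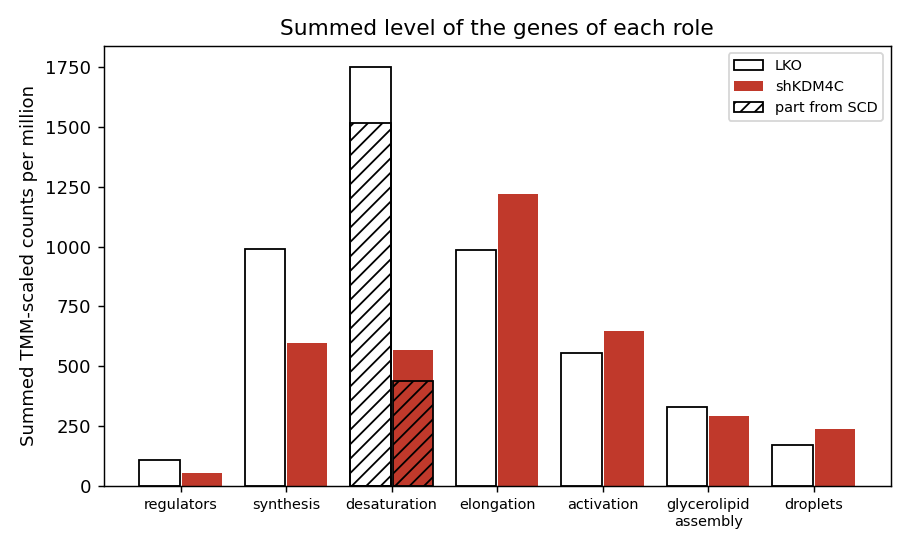
Summed TMM-scaled CPM of the genes of each role in LKO (open bars) and shKDM4C (filled bars), 1 library each, with the part from SCD hatched. Desaturation went from 1752 to 566 CPM, and elongation from 988 to 1220 CPM.

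Summed by role, synthesis genes were at 989 CPM in LKO and 598 in shKDM4C, and desaturation genes at 1752 and 566. Elongation genes were at 988 and 1220, and activation genes at 555 and 646. All 43 members together were at 4896 CPM in LKO and 3613 in shKDM4C, which is 73.8% of LKO. Without SCD the sums were 3379 and 3176, or 94.0%, so most of the net difference in the sum is SCD. The 94.0% is a net of opposite changes. Of the other members, regulators, synthesis, desaturation and glycerolipid assembly genes were lower in sum, and elongation, activation and droplet genes higher.

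Per kilobase of exon, SCD was first in both libraries, but its distance to the next gene changed. In LKO it was at 289 CPM per kb, followed by ACLY at 64.7 and HACD2 at 62.2. In shKDM4C it was at 83.3, followed by ELOVL1 at 77.5 and HACD2 at 68.2.

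Of the 9 glycerolipid assembly genes, 2 of the first step were higher, 3 of later steps were lower and 4 were neither. The shares of 33.3% lower and 22.2% higher stand beside 15.7% and 13.0% of all measured genes. The steps were split with the ratios known, and the difference between the steps was not tested. The glycerol-3-phosphate acyltransferase genes, whose enzymes attach the first acyl chain, were higher or not called. GPAM, the mitochondrial form, had 2639 counts against 3466 and a log2 ratio of 0.66 (interval 0.58 to 0.73), although it was below 1.5-fold when total counts were used for scaling, at 0.58. GPAT3, a form of the endoplasmic reticulum, had 1607 counts against 2141, or 27.2 against 43.4 CPM, and a log2 ratio of 0.68 (interval 0.58 to 0.77). GPAT4 had 0.15 (interval 0.057 to 0.23).

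The genes of the steps that follow were lower or not called. LPIN1, the phosphatidate phosphatase that makes diacylglycerol and also acts as a nuclear coregulator, had 6080 counts in LKO and 2287 in shKDM4C, a fall from 103 to 46.4 CPM with a log2 ratio of -1.15 (interval -1.22 to -1.08). DGAT2, which makes triglyceride from newly made fatty acids, had 115 counts against 50 and a log2 ratio of -0.93 (interval -1.45 to -0.45), at only 1.94 and 1.01 CPM. DGAT1, the other diacylglycerol acyltransferase gene, was not called at -0.37 (interval -0.58 to -0.16). Of the lysophosphatidate acyltransferase genes, which add the second chain, AGPAT1 had 802 counts against 435 and a log2 ratio of -0.62 (interval -0.79 to -0.45), AGPAT2 -0.19 and AGPAT3 -0.37. AGPAT1 shares 1087 exonic bases with the readthrough gene PPT2-EGFL8 on the opposite strand, which had 25 counts in LKO and 44 in shKDM4C.

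Among the droplet genes, the lipase PNPLA2 and its activator ABHD5 went in opposite directions. PNPLA2, adipose triglyceride lipase, had 813 counts in LKO and 300 in shKDM4C, at 13.7 and 6.09 CPM. The shKDM4C level was 44.4% of LKO, a log2 ratio of -1.17 (interval -1.37 to -0.98). ABHD5, the protein that switches this lipase on, had 3467 counts against 5208, or 58.6 against 106 CPM, and a log2 ratio of 0.85 (interval 0.79 to 0.91). MGLL, which ends the breakdown of triglyceride, had 4807 counts against 5227 and 0.38 (interval 0.33 to 0.44). LIPE, hormone-sensitive lipase, was near the limit with 61 counts against 44, and its interval of -0.80 to 0.38 includes no change.

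Of the droplet coat genes, PLIN3 was detected in both libraries and PLIN2 was near 0. PLIN3 had 1043 counts in LKO and 897 in shKDM4C, a log2 ratio of 0.046 whose interval, -0.084 to 0.18, includes no change and whose sign turned with total counts. PLIN2, which encodes the coat protein of droplets in most cell types, had 1 count in LKO and 4 in shKDM4C. Its neighbours on chromosome 9 were well counted: HAUS6 had 8440 counts against 8805, and DENND4C had 3756 against 2688. HAUS6 and DENND4C were chosen after the PLIN2 counts were seen.

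**Figure D4:**
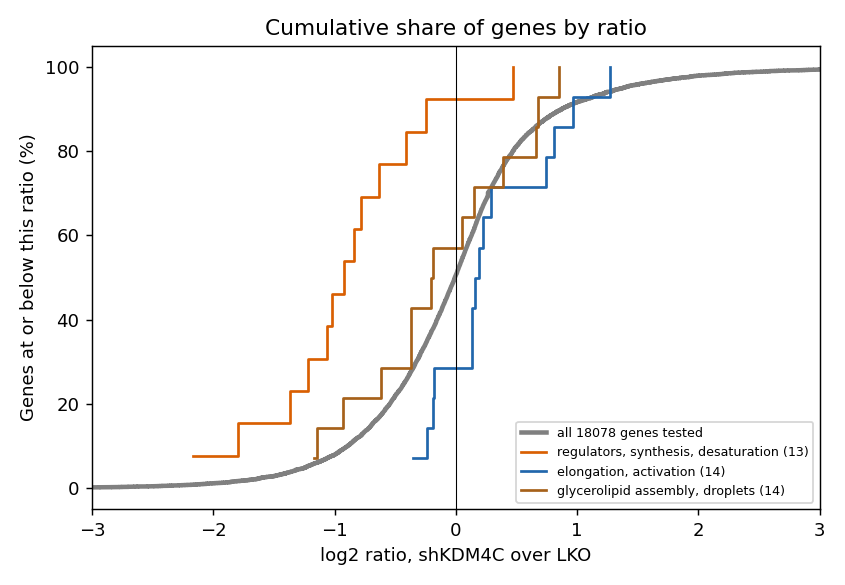
Cumulative share of genes (vertical axis, percent) at or below each log2 ratio of shKDM4C over LKO, for all 18078 measured genes (grey) and for 3 groups of members. The curve of regulators, synthesis and desaturation (median -0.93, 13 genes) lies to the left of the grey curve, and that of elongation and activation starts only at -0.35.

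Genes around this pathway were examined in 10 further lists, in which 84 of 107 genes were measured, 28 of them lower and 5 higher (33.3% and 5.95%, against 15.7% and 13.0% of all measured genes). In SREBP processing, INSIG1, which retains the precursors in the endoplasmic reticulum and is itself induced by SREBPs, had 7939 counts in LKO and 966 in shKDM4C, a log2 ratio of -2.77 (interval -2.87 to -2.68). SREBF2, which encodes the factor of cholesterol synthesis, had 6707 counts against 2429 and -1.20 (interval -1.27 to -1.13). FBXW7, the ubiquitin ligase subunit that degrades nuclear SREBPs, had 1246 counts against 1726 and was higher at 0.73 (interval 0.63 to 0.84). In this list of 7, 3 genes were lower and 1 higher (42.9% and 14.3%).

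Suppliers of NADPH, the reductant of fatty acid synthesis, were lower in 3 of 7 measured genes and higher in 0. The shares of 42.9% and 0% stand beside 15.7% and 13.0% of all measured genes. IDH1, the cytosolic isocitrate dehydrogenase, had 8288 counts against 2215 and a log2 ratio of -1.64 (interval -1.71 to -1.57). H6PD, which reduces NADP in the endoplasmic reticulum, had 547 counts against 84. Among genes of acetyl-CoA, malonyl-CoA and carboxylase control, 3 of 7 were lower and 0 higher (42.9% and 0%). MLYCD, which removes malonyl-CoA, had 182 counts against 55, and ACSS1, the mitochondrial acetate enzyme, had 416 against 172. Of 8 measured genes of AMPK, the kinase that inhibits the carboxylases, and its upstream kinases, 2 were lower and 0 higher (25% and 0%). The lower ones were CAMKK2 at -1.41 (interval -1.51 to -1.31) and the catalytic subunit gene PRKAA2 at -0.71 (interval -1.07 to -0.37). The median of the 8 genes was 0.11.

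Nuclear receptors and other factors of lipid synthesis were lower in 4 of 10 genes and higher in 0. These are 40% and 0%, against 15.7% and 13.0% of all measured genes. RXRA, the common partner of liver X receptors and PPARs, had 3342 counts against 1001 and a log2 ratio of -1.47 (interval -1.58 to -1.37), and PPARA had -0.82 (interval -1.02 to -0.63). For fatty acid uptake and binding, 4 of 12 were lower and 1 higher (33.3% and 8.33%). The very long-chain acyl-CoA synthetase gene SLC27A2 had -1.36 (interval -1.98 to -0.81), while the fatty acid binding protein gene FABP3 had 89 counts against 196 and 1.40 (interval 1.03 to 1.78).

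The other droplet proteins again went both ways, with 4 of 8 measured genes lower and 2 higher. These are 50% and 25%, against 15.7% and 13.0% of all measured genes. FITM2, which partitions triglyceride into droplets, had 534 counts in LKO and 159 in shKDM4C, and PNPLA3, a relative of PNPLA2, had 596 against 209. AUP1, a droplet protein of ubiquitin-dependent degradation, had 4359 counts against 6108, and BSCL2, which encodes seipin, had 30 against 55. PLIN1, CIDEA, CIDEC and the PNPLA2 inhibitor gene G0S2 had at most 3 counts in each library, and were picked for mention after their values were seen.

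In the remaining lists the share of lower genes lay between 16.7% and 22.2%, near the 15.7% of all measured genes. Of other members of the same enzyme families, 2 of 9 were lower, ACSF3 at -0.87 (interval -1.05 to -0.70) and HACD4 at -0.71 (interval -0.84 to -0.58), and 1 was higher, ACSBG1 with 23 counts against 40. Of the 6 genes of mitochondrial fatty acid synthesis 1 was lower, the reductase gene MECR at -0.73 (interval -0.95 to -0.51). In phospholipid remodelling 2 of 10 were lower, PCYT2 at -0.94 (interval -1.16 to -0.74) and PCYT1A at -0.75 (interval -0.82 to -0.68), the rate-controlling genes of phosphatidylethanolamine and phosphatidylcholine synthesis.

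**Figure D5:**
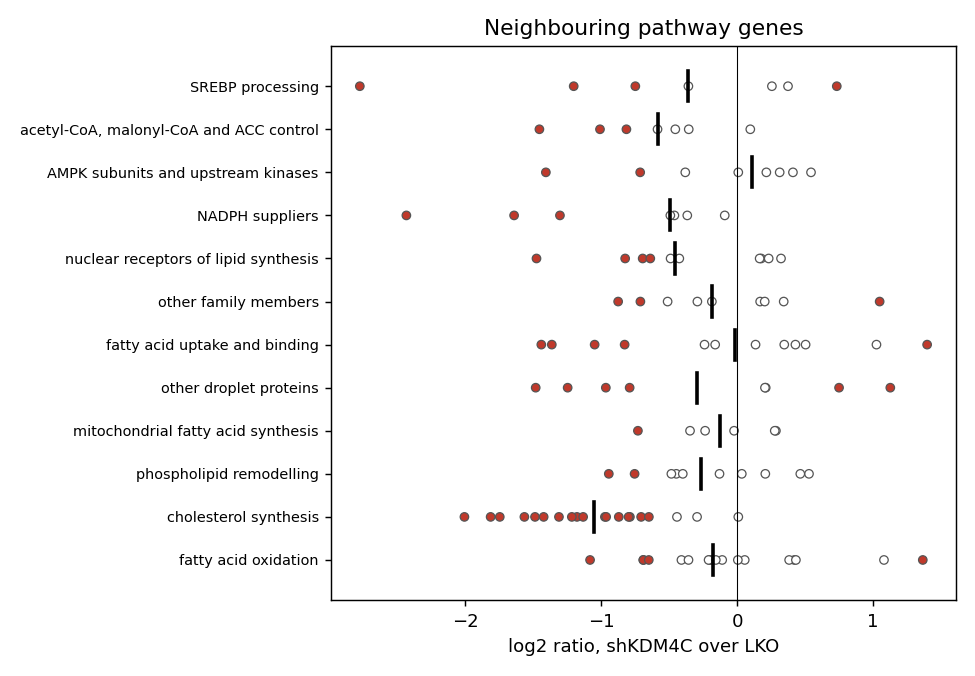
Log2 ratio of shKDM4C over LKO (horizontal axis) for the measured genes of 10 lists around the pathway and of cholesterol synthesis and fatty acid oxidation. Filled points are genes called lower or higher, open points are neither and black bars are list medians. Cholesterol synthesis has a median of -1.05 and AMPK genes one of 0.11.

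Cholesterol synthesis and fatty acid oxidation were chosen as lists to compare, and similarity between pathways was not measured. Of 20 genes of cholesterol synthesis, 17 were lower and 0 higher (85% and 0%, against 15.7% and 13.0% of all measured genes). Their median was -1.05. The regulators, synthesis and desaturation genes, pooled with the ratios known, had 10 of 13 lower and a median of -0.93. The lowest sterol genes were MVK, mevalonate kinase, at 24.9% of LKO and HSD17B7 at -1.81 (interval -2.02 to -1.61). Fatty acid oxidation, with 18 genes measured, had 4 lower and 1 higher (22.2% and 5.56%) and a median of -0.17. DECR1, needed for unsaturated fatty acids, had -1.08 (interval -1.29 to -0.88) and ACADM -0.69 (interval -0.75 to -0.63). CPT1A, which malonyl-CoA inhibits, was 2.58-fold higher, with 2208 counts against 4742. These shares are descriptions of 2 libraries, and the differences between lists were not tested.

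Matches to the hairpins were counted because a hairpin can lower other transcripts through short pairing in the 3′ UTR. The targets of the 2 KDM4C hairpins are shown with the 7 bases that pair with guide positions 2 to 8 in capitals.
shKDM4C#1: atacttggattacGAAGATTt
shKDM4C#2: gctatgagaagccCGAGAAAt
Searched were the 5 overlapping words of 7 bases within the stretch opposite guide bases 2 to 12. Of the 41 measured members, 5 hold at least 1 word of shKDM4C#1 (17.5% of the 13225 genes searched do) and 7 at least 1 word of shKDM4C#2 (10.5% of genes searched). Among the 14 lower members, SREBF1, MLXIP and PNPLA2 each hold 1 word of shKDM4C#2 and FADS1 1 of shKDM4C#1, and the other 10 hold none. Among the higher members, ABHD5 holds 2 words of shKDM4C#1. Of the members that were neither, AGPAT3 holds 3 words of shKDM4C#2, and outside the members RXRA holds 4. Without the 12 members that hold a word, 10 of 29 were lower and 6 higher, and their median was -0.20. The part of hairpin matches in these ratios was not tested, and with 1 library per condition lower KDM4C, other effects of the hairpin and differences between the cultures cannot be told apart.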

How the data were processed

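The authors trimmed paired-end reads with Trimmomatic, aligned them to GRCh38 (hg38) with HISAT2 and deposited whole-number read counts per gene from featureCounts, with 1 library per condition. Tool versions, annotation release and strand setting were not given in the sources used here, so genes that overlap on either strand are less certain. The authors also deposited normalized values, log2 fold changes and p-values of their own comparison, made with DEGseq, all of which were not used here.

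Of 58884 gene IDs, 58472 were matched to a GENCODE v44 symbol, and exonic lengths are the union of annotated exons. Library sizes were scaled with edgeR 4.0.16 (TMM) in R 4.3.3 over the 18078 genes whose counts summed to 20 or more, giving factors of 1.03 for LKO and 0.974 for shKDM4C. Log2 ratios used a prior count of 0.5, and intervals are exact conditional binomial (Clopper-Pearson) 95% intervals of the pair of counts. PCR copies are not independent molecules, so they cover counting error only. Alternatives were total counts, DESeq2 1.42.0 size factors, minimums of 1 and 200 counts, a prior of 5, a 99% interval, a 2-fold threshold, the interval alone, and the list without members that hold a hairpin word.

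All members may be named, with KDM4C and, in each further list, up to 2 called genes per direction by the interval bound nearest to no change; 1 gene that this rule selects is not reported here. Members, lists and alternatives were chosen with earlier results of these data known. Calculations used Python 3.11.15, numpy 2.4.6, pandas 2.3.3, scipy 1.17.1 and matplotlib 3.10.9. Promoter windows are from RefSeq (GRCh38.p14), which was not compared with the authors' annotation. CUT&Tag data were not analysed here.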

Additional observations from a re-analysis of the deposited data

How the results depend on the processing

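The counts of lower and higher members stayed within 1.5 times of 14 and 7 under other scalings, count minimums, a prior count of 5 and a 99% interval. Without members that hold a hairpin word, 10 of 29 were lower and 6 higher, and counts of this smaller set cannot be compared directly with 14 and 7. With a 2-fold threshold, 8 members were lower and 1 higher (1348 and 1404 of all measured genes), and with the interval alone 22 and 15 (6059 and 5806). With at least 200 counts, 1664 of 11656 genes were lower and 1053 higher (14.3% and 9.03%, against 15.7% and 13.0%). The members that remained at 2-fold were SREBF1, ACSS2, FASN, SCD, SCD5, FADS3, LPIN1, PNPLA2 and, on the higher side, ACSL5. The call of GPAM was lost with total counts, and ELOVL2 was called higher with a minimum of 1 count. Of 202 member ratios under the settings that recompute them (scaling, count minimum and prior count), 0 of the called ones changed sign and 22 left the 95% interval of the reported value. Without members whose exons overlap a counted gene, which was added once the data had been seen, 11 of 32 were lower and 5 higher. No paired analysis was possible because each condition has 1 library, and leaving out a replicate was not possible for the same reason. Depth limits MLXIPL, LIPE, DGAT2, ELOVL2 and PLIN2.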
